A study of Mus musculus with 2 samples.

Results

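A set of 10 genes of bone morphogenetic protein (BMP) signalling were followed through the cells of a normal and a fibrotic mouse liver. They are the ligands Bmp2, Bmp4, Bmp5, Bmp6, Bmp10 and Gdf2 (which encodes BMP9), the type I receptor Acvrl1 (ALK1), the type II receptor Bmpr2, the co-receptor Eng (endoglin) and the secreted modulator Bmper. They were chosen by name, with earlier results of these data known, and all 10 were among the 19219 genes listed in both libraries. Single-cell RNA sequencing was performed on liver non-parenchymal cells (NPCs) of C57BL/6 male mice that were 8 weeks old. The fibrosis group was 1 mouse that received intraperitoneal CCl4, a hepatotoxin, as a 15% solution in olive oil at 0.6 µl/g, 2 times a week over 6 weeks, and was killed 48 h after the final dose. The normal group was 1 control mouse, labelled as quiescent, and the vehicle olive oil served as control. Hepatocytes had been depleted by low-speed centrifugation, and the cells were counted by unique molecular identifiers (UMIs) with droplet 3′ chemistry. With 1 library per group no test between groups was possible, and each difference below is one between 2 mice.

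BMP ligands are secreted dimers of the TGF-β superfamily that bind pairs of type I and type II receptors, after which SMAD1, SMAD5 and SMAD9 enter the nucleus and raise targets such as the Id genes, Smad6 and Smad7. In liver, BMP2 and BMP6 from sinusoidal endothelium drive hepatocytes to make hepcidin, the hormone that limits iron uptake. BMP9 and BMP10 circulate in blood and signal to endothelium with high affinity through ALK1, BMPR2 and endoglin. Loss of function of ALK1 or endoglin causes hereditary haemorrhagic telangiectasia.

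In these libraries the ligands fell into 3 sets by the cells that held them. Bmp2 and Bmp6 were highest in liver sinusoidal endothelial cell (LSEC)-like cells, Gdf2, Bmp10 and Bmp5 in cells with markers of hepatic stellate cells and myofibroblasts (HSC/MF-like cells), and Bmp4 in central-vein-like endothelium and mesothelial-like cells of the normal library. In fibrosis, Bmp4 of central-vein-like cells stood at 0.0333 of its normal level, Eng stood lower in zone 2/3-like, central-vein-like and portal-vessel-like endothelium, and Bmp10 stood lower in the HSC/MF-like cells with the most collagen transcripts. Bmper stood higher in portal-vessel-like cells and, at levels not clearly told apart from background, in zone 2/3-like and central-vein-like cells. Bmpr2 and Acvrl1 differed by less than 1.5-fold per 10000 UMIs in zone 1-like, zone 2/3-like, central-vein-like and portal-vessel-like cells.

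The promoters of the 3 ligands held by HSC/MF-like cells are shown because these genes were highest in the same cell group in both libraries. They run from 250 bases before to 50 bases after the annotated start, 5′ to 3′ on the gene's strand, from RefSeq on GRCm38.p6 (mm10). Gdf2 lies at chr14:33940789-33941088, Bmp10 at chr6:87428744-87429043 and Bmp5 at chr9:75775115-75775414, all on the plus strand. Capitals mark matches to the GATA site AGATAA or the homeodomain site TAATTA, each searched on both strands.
Gdf2: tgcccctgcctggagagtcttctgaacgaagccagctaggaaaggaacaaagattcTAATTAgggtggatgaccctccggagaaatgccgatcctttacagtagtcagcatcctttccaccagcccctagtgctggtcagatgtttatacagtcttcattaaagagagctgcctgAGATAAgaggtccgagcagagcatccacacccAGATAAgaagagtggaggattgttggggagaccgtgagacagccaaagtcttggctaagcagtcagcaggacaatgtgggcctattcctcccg
Bmp10: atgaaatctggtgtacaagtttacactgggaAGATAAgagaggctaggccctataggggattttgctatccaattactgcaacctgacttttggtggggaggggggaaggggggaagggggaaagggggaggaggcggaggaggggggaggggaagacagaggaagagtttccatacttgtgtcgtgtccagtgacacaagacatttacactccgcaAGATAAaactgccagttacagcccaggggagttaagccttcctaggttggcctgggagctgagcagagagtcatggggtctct
Bmp5: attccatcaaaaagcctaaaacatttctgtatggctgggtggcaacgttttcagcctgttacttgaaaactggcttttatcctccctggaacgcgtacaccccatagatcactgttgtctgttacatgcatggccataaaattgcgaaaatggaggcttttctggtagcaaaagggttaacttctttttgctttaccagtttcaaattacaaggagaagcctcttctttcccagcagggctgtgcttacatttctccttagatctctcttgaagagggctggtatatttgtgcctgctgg

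Gdf2 held AGATAA at positions -75 and -43 relative to the start and TAATTA at -194, and Bmp10 held AGATAA at -219 and -33. Of 32544 mouse promoters of the same length, 11.2% held AGATAA and 5.29% held TAATTA on either strand. Also searched were the E-box CAGCTG, in 16.4% of promoters, and the BMP-SMAD element GGCGCC, in 11.9%. Bmp5 held no match to these 4 motifs. Of the other members in the promoter table (8 of 10 matched, Bmp2 and Acvrl1 did not), Bmpr2 held GGCGCC at -105, and Eng, Bmp4, Bmp6 and Bmper held none. No matches overlapped, and a match is a description of letters only.

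All 10 are protein-coding genes of GRCm38. Gdf2 (ENSMUSG00000072625.1) is annotated on chromosome 14 from 33941039 to 33947198, Bmp10 (ENSMUSG00000030046.6) on chromosome 6 from 87428994 to 87437677 and Bmp5 (ENSMUSG00000032179.7) on chromosome 9 from 75775364 to 75900310. Bmp2 (ENSMUSG00000027358.6) lies on chromosome 2 from 133552159 to 133562885, Bmp6 (ENSMUSG00000039004.6) on chromosome 13 from 38345107 to 38500302 and Bmp4 (ENSMUSG00000021835.15) on chromosome 14 from 46383520 to 46390669. The receptors lie on chromosome 15 from 101128522 to 101145336 (Acvrl1, ENSMUSG00000000530.16), chromosome 1 from 59763400 to 59879014 (Bmpr2, ENSMUSG00000067336.6) and chromosome 2 from 32646595 to 32682669 (Eng, ENSMUSG00000026814.16). Bmper (ENSMUSG00000031963.8) lies on chromosome 9 from 23223076 to 23485200.

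The normal library held 8130 cells with 44062632 UMIs and the fibrosis library 6437 cells with 53288463 UMIs, of which 7471 and 6132 cells passed the filter on mitochondrial UMIs. The 2 libraries shared 15 cell barcodes. Cells were clustered in each library without the 10 genes and without the other pathway genes, and a name such as "LSEC-like" says which markers a cluster carried. A level is the number of UMIs of a gene per 10000 UMIs of a cell group, with an exact 95% Poisson interval, and levels are compared within a gene only. Ratios carry an exact conditional 95% interval. These intervals, and the limit of 3 counts used where a count was 0, cover counting error only and say nothing of the spread between mice. Because cells of the fibrosis library were often deeper (median 4693.5 and 7476 UMIs in normal and fibrosis LSEC-like cells, 6278 and 11330 in HSC/MF-like cells), ratios per cell are given beside the main results.

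Lymphoid cells (NK/T-like and B-like together, 1613 normal and 1073 fibrosis cells, with medians of 3198 and 2373 UMIs) were taken as cells that should lack these genes. In the normal library, Bmp2 stood at 13.1% of its LSEC-like level in lymphoid cells, Bmp6 at 14.2%, Bmpr2 at 16.1% and Eng at 18.3%. The endothelial markers Stab2 (14.4%), Clec4g (14.5%) and Ptprb (15.7%) lay in the same range, and Acvrl1 stood at 23.9%. In the fibrosis library these shares were higher, at 19.9% for Bmp2, 20.9% for Eng, 20.4% for Stab2 and 38.8% for Acvrl1. The part of free RNA in the levels was not tested. The summed level of the 25 HSC/MF markers in lymphoid cells was 2.14 per 10000 in normal and 17.8 in fibrosis, and that of the 15 hepatocyte markers was 333 and 31.1. Levels at or below the lymphoid one are read as background.

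**Figure D1:**
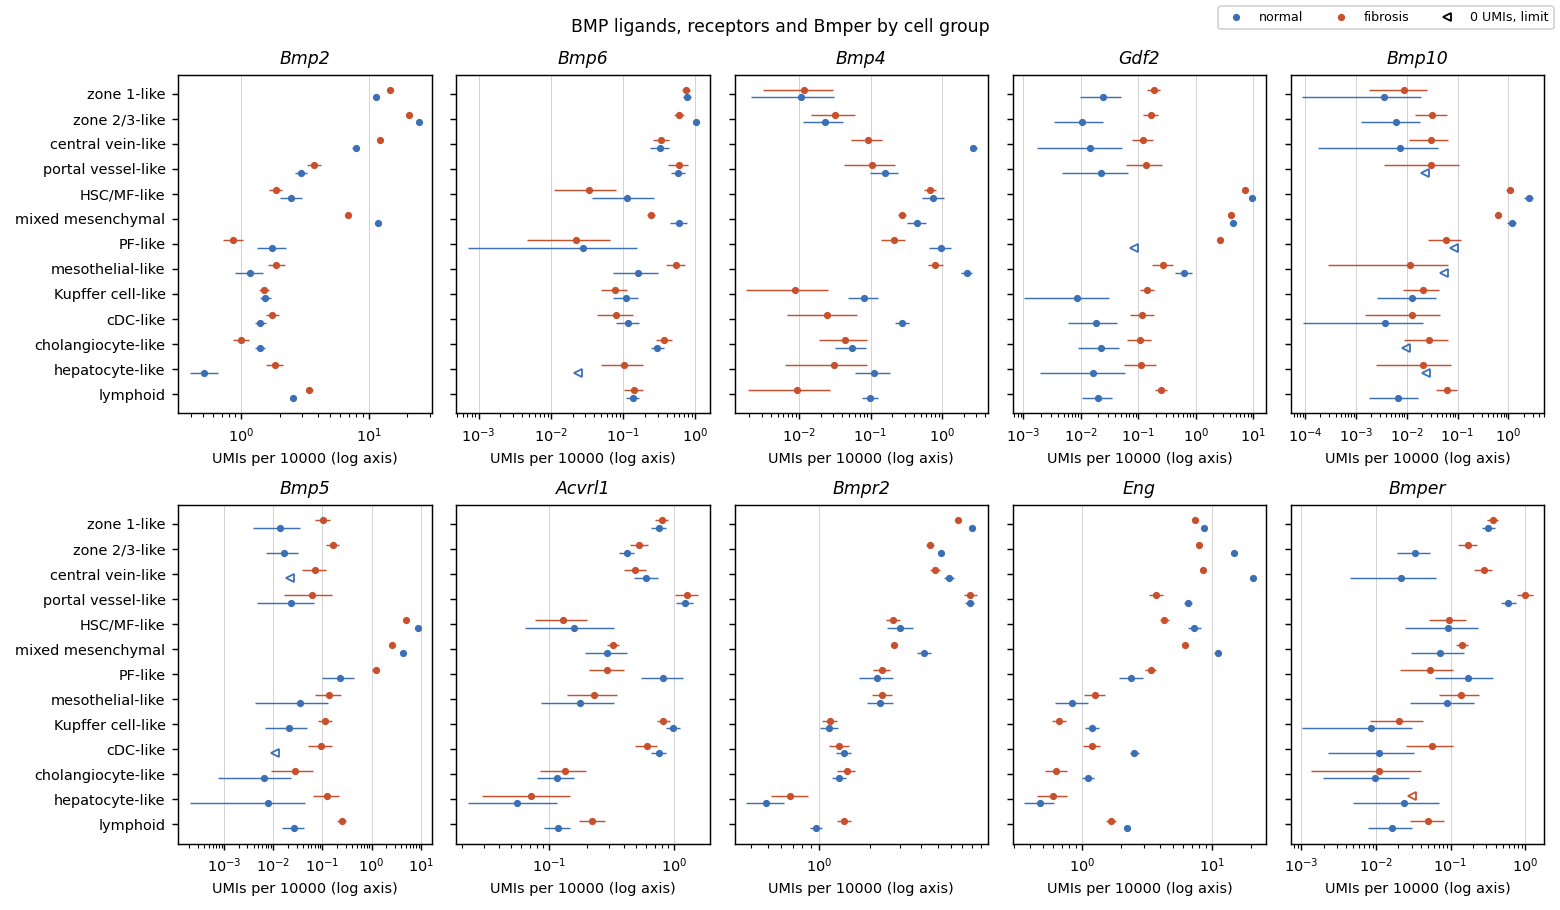
Level of each of the 10 genes (UMIs per 10000 UMIs, log axis) in 13 cell groups of the normal (blue) and the fibrosis (red) library. Points are group values with exact 95% Poisson intervals, and open triangles are limits of 3 counts where a group held 0 UMIs. Gdf2, Bmp10 and Bmp5 are highest in HSC/MF-like cells, and in endothelial groups they lie near or below the lymphoid level.

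Bmp2, the main endothelial ligand upstream of hepcidin, stood at 19.2 per 10000 (19.0 to 19.5) in 2182 normal LSEC-like cells and at 17.2 (16.9 to 17.4) in 1397 fibrosis LSEC-like cells. Its ratio of fibrosis over normal was 0.894 (0.876 to 0.911). Counted per cell the ratio was 1.43, so the direction depends on the scale. The order of its levels along the endothelium was the same in both libraries, with zone 2/3-like cells highest and portal-vessel-like cells lowest. In normal liver Bmp2 stood at 24.9 in zone 2/3-like (midlobular and pericentral sinusoid) and 11.5 in zone 1-like (periportal sinusoid) cells. It stood at 7.91 in central-vein-like and 2.95 in portal-vessel-like cells, the last close to the lymphoid 2.52. In fibrosis these levels were 20.6, 14.7, 12.3 and 3.75, against a lymphoid level of 3.42.

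Bmp2 fell within the sinusoid from zone 2/3-like to zone 1-like cells by a ratio of 2.17 (2.09 to 2.25) in normal and 1.40 (1.35 to 1.46) in fibrosis. That difference did not hold when cells were clustered in other ways, where the ratio was smaller in fibrosis in 2 of 5 clusterings and lay between 1.31 and 1.94 in normal and between 1.14 and 2 in fibrosis. Nor did the higher level in zone 1-like cells of the fibrosis library hold, as its ratio of 1.28 became 0.617 to 1.09 under these clusterings. In central-vein-like cells the ratio of 1.55 (1.44 to 1.67) stayed above 1 under 4 of the 5 and was 0.605 at a resolution of 0.4. The sinusoidal markers Stab2 and Wnt2 also stood higher in these cells in fibrosis, and their part in this ratio was not tested. The normal zone 1-like sub-cluster led by Igfbp5 held Bmp2 at 5.75 and the one led by Msr1 at 16.0, and the fibrosis zone 1-like sub-clusters, led by Igfbp5 and by AC167229.1 (with Msr1 among its 3 leading genes), held it at 9.05 and 17.9. The contrast of zone markers also narrowed: Kit stood 12.2-fold higher in zone 2/3-like than zone 1-like cells in normal and 5.05-fold in fibrosis, and Wnt2 15.1-fold and 7.72-fold. The part of this narrowing in the Bmp2 result was not tested.

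Bmp6, the other hepcidin-inducing ligand, stood at 0.960 per 10000 (0.903 to 1.02) in normal and 0.737 (0.688 to 0.789) in fibrosis LSEC-like cells, a ratio of 0.767 (0.700 to 0.841). Per cell the ratio was 1.23. It lay at 0.763 and 0.750 in zone 1-like cells, with overlapping intervals (1.41 per cell), and at 1.01 (0.924 to 1.1) and 0.594 (0.508 to 0.692) in zone 2/3-like cells. There its ratio was 0.588 (0.490 to 0.702), and it was also below 1 per cell (0.763) and under all 5 other clusterings (0.531 to 0.862). Central-vein-like cells held less, at 0.326 and 0.338, with overlapping intervals (1.55 per cell). Outside endothelium, cholangiocyte-like cells held Bmp6 at 0.298 and 0.372 and fibrosis mesothelial-like cells at 0.537, against 0.136 and 0.141 in lymphoid cells. Plasmacytoid dendritic cell (pDC)-like cells stood at 0.253 and 0.399, and neutrophil-like cells at 0.250 and 0.271. These lay near the cholangiocyte-like levels, which by this comparison are not told apart from background. Normal Bmp2 stood at 1.40 in cholangiocyte-like, 3.21 in pDC-like and 4.26 in neutrophil-like cells. The groups may thus differ in free RNA, which was not tested.

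**Figure D2:**
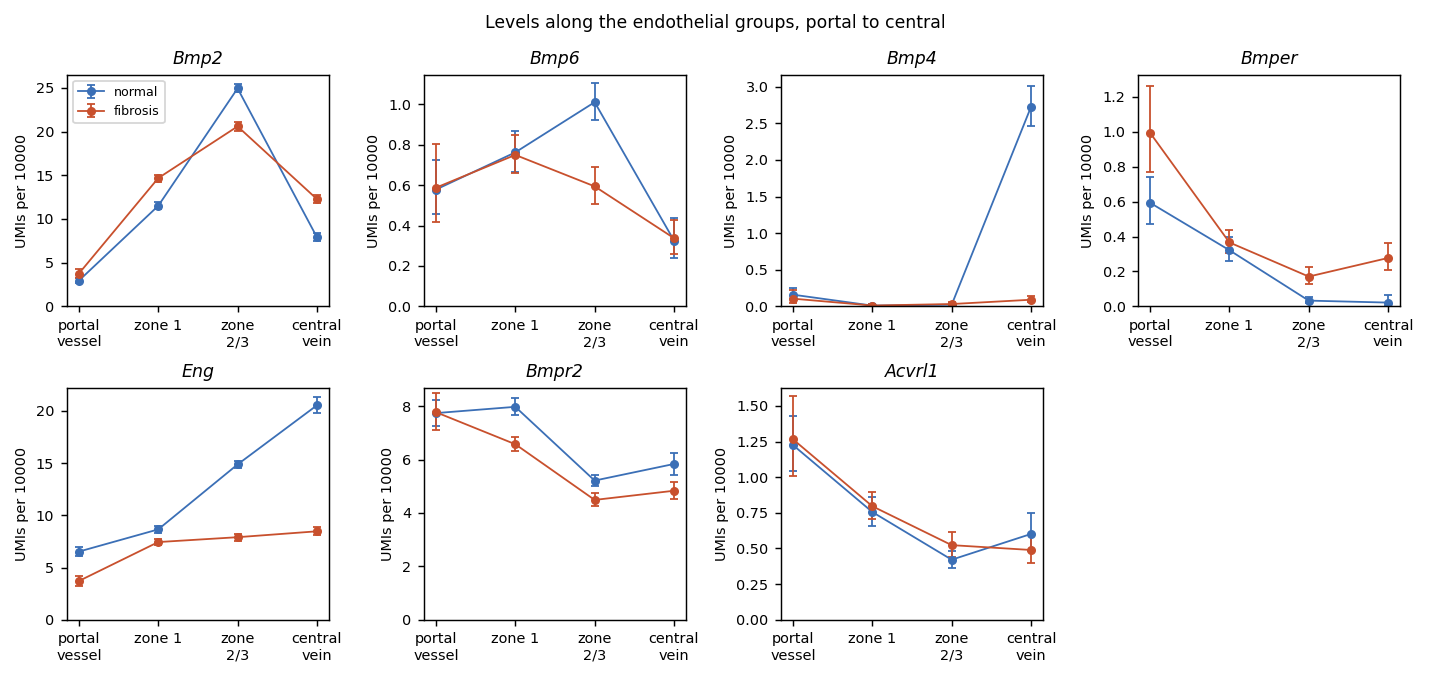
Levels (UMIs per 10000 UMIs, linear axes from 0) of 7 genes in portal-vessel-like, zone 1-like, zone 2/3-like and central-vein-like cells of the normal (blue) and the fibrosis (red) library, with exact 95% Poisson intervals. Normal Eng rises from 6.52 to 20.5 from the portal to the central side, fibrosis Eng stays between 3.71 and 8.47, and Bmp4 is near 0 outside normal central-vein-like cells.

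Bmp4, a ligand best known from development, had its highest normal level in central-vein-like cells, at 2.73 per 10000 (2.46 to 3.02), from 376 UMIs in 102 of 207 cells. In fibrosis the same class held 18 UMIs in 11 of 199 cells, a level of 0.0908 (0.0538 to 0.143). The ratio was 0.0333 (0.0195 to 0.0534), or 0.0498 per cell. After each cell was thinned to 1000 UMIs, 14.0% of normal and 2.01% of fibrosis central-vein-like cells held a Bmp4 UMI. The 3 richest cells held 10 of the 18 fibrosis UMIs, and without the 3 richest cells of each library the ratio was 0.0169.

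The lymphoid level of Bmp4 was 0.0995 in normal and 0.00938 in fibrosis. The label of the central-vein-like class was checked against its markers. Rspo3, a Wnt enhancer that defines central vein endothelium, stood at 31.1 in normal and 12.5 in fibrosis central-vein-like cells, Wnt9b at 5.76 and 3.81 and Lhx6 at 5.16 and 3.44. Stab2 and Wnt2, which mark sinusoidal cells, stood at 4.39 and 7.48 and at 6.52 and 9.69. The central vein markers were thus lower in the fibrosis cells too, by less than Bmp4. Among central-vein-like cells with a Wnt9b UMI (a choice made after the data were seen), Bmp4 stood at 2.61 in 175 normal and 0.111 in 157 fibrosis cells, a ratio of 0.0426 (0.0249 to 0.0685), while the ratio of Rspo3 was 0.431. Under other clusterings the Bmp4 ratio lay between 0.0342 and 0.108, and with a mitochondrial limit of 5% it was 109 UMIs in 44 normal cells against 0 in 26 fibrosis cells.

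Mesothelial-like cells also held less Bmp4 in fibrosis, with 2.22 (1.84 to 2.64) in 45 normal and 0.8 (0.624 to 1.01) in 48 fibrosis cells. Their ratio was 0.361 (0.266 to 0.488), and 0.529 per cell. PF-like cells, named by markers of portal fibroblasts, stood at 0.956 (34 UMIs in 44 cells) and 0.211 (28 UMIs in 81 cells). Their ratio was 0.220 (0.129 to 0.374), and per cell it was also below 1 but nearer to it. In HSC/MF-like cells Bmp4 was 0.752 and 0.676, with overlapping intervals. A set of 14 lymphatic-endothelial-like cells, found in the normal library, held 14 Bmp4 UMIs, of which 12 lay in 1 cell. Of all Bmp4 UMIs, central-vein-like cells held 41.0% in normal and 3.31% in fibrosis.

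The ligands of HSC/MF-like cells followed. Gdf2, whose product BMP9 is the circulating ligand of ALK1, stood at 9.68 per 10000 (8.78 to 10.6) in 64 normal and 7.16 (6.74 to 7.61) in 121 fibrosis HSC/MF-like cells. Bmp10, the other high-affinity ligand of ALK1, stood at 2.51 (2.06 to 3.02) and 1.06 (0.902 to 1.24). Bmp5, a ligand close to BMP6 in sequence, stood at 8.84 (7.98 to 9.76) and 4.99 (4.64 to 5.36). The intervals of the 2 libraries did not overlap for any of the 3. The stellate markers Lrat (15.7 and 16.7) and Reln (24.5 and 19.4) were high in both libraries, while the endothelial marker Pecam1 was at 0.615 and 0.318. The 64 normal cells, on which every ratio of HSC/MF-like cells rests, were 1 sub-cluster led by Ighm, Ccl2 and Ccl5, genes of immune cells. It had 1 HSC/MF and 1 NK/T marker among its 10 leading genes, 21 of the 25 HSC/MF markers raised, and 9.38% of its cells in the top 5% of doublet scores. The part of immune RNA in these levels was not tested.

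The ratio of fibrosis over normal was 0.740 (0.660 to 0.830) for Gdf2, 0.424 (0.330 to 0.546) for Bmp10 and 0.565 (0.499 to 0.640) for Bmp5. Per cell the ratios were 1.32, 0.755 and 1.01, so Bmp10 was lower on both scales and Gdf2 was not. Without the mitochondrial limit the Bmp10 ratio was 0.696, and no HSC/MF-like cells were found at a limit of 5% or, in the normal library, at a resolution of 0.4. Of 64 normal HSC/MF-like cells 37 held UMIs of all 3 and 6 held none, and of 121 fibrosis cells 63 held all 3 and 8 held none.

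In the fibrosis library these cells formed 2 sub-clusters, named here by their first leading gene. The Ankrd1-led one (59 cells, median 17183 UMIs) held Col1a1 at 112 and Acta2 at 11.9 per 10000, and the Ms4a4b-led one (62 cells, median 5471.5 UMIs) held them at 15.2 and 4.81. Ms4a4b is best known from lymphocytes, and 7.44% of the 121 cells had doublet scores in the top 5% of the library. With the cells of such scores removed from both libraries, the ratios over all HSC/MF-like cells were 0.692 for Gdf2, 0.396 for Bmp10 and 0.524 for Bmp5. Normal HSC/MF-like cells held Col1a1 at 2.21 and Acta2 at 0.979. Bmp10 stood at 0.649 (0.504 to 0.822) in the Ankrd1-led and 2.07 (1.66 to 2.55) in the Ms4a4b-led cells. The latter level overlapped that of normal cells.

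Gdf2 differed less between them, with 6.28 (5.81 to 6.77) in the Ankrd1-led and 9.32 (8.43 to 10.3) in the Ms4a4b-led cells. Bmp5 stood at 4.70 and 5.69, per 10000 both below the normal 8.84. The ratio of Ankrd1-led over Ms4a4b-led cells was 0.314 (0.225 to 0.435) for Bmp10, 0.673 (0.594 to 0.764) for Gdf2 and 0.826 (0.707 to 0.966) for Bmp5. Per cell the Ankrd1-led and Ms4a4b-led cells held 1.15 and 1.44 UMIs of Bmp10, 11.2 and 6.47 of Gdf2 and 8.36 and 3.95 of Bmp5, so the order turned for Gdf2 and Bmp5 and not for Bmp10. Over normal cells the Ankrd1-led cells then stood at 0.671 for Bmp10, 1.68 for Gdf2 and 1.38 for Bmp5. Both sub-clusters are cells of 1 mouse and are no replicates of each other.

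**Figure D3:**
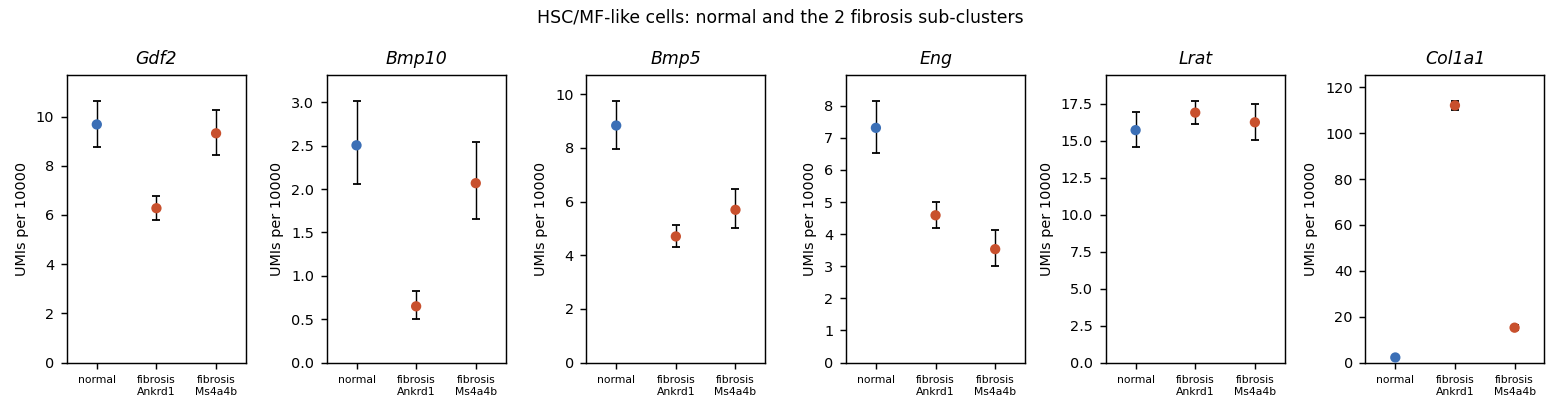
Levels (UMIs per 10000 UMIs, linear axes from 0, exact 95% Poisson intervals) of 3 ligands, Eng, the stellate marker Lrat and collagen Col1a1 in normal HSC/MF-like cells (blue, 64 cells) and in the Ankrd1-led (59 cells) and Ms4a4b-led (62 cells) fibrosis sub-clusters (red). Bmp10 is lowest, and Col1a1 highest, in the Ankrd1-led cells, while Lrat lies between 15.7 and 16.9 in all 3.

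Other mesenchymal groups carried the same ligands. Mesenchymal sub-clusters led by markers of another class or of the cell cycle, or (29 fibrosis cells) by markers of no class, are called mixed mesenchymal here. They held 45.3% of Gdf2 UMIs in the normal library (60 cells) and 63.4% in the fibrosis library (316 cells). Their Gdf2 level was 4.52 and 4.03. In the fibrosis sub-cluster with endothelial markers (131 cells), Gdf2 stood at 3.95, Bmp10 at 0.742 and Bmp5 at 2.63, Lrat at 6.46, and the 23 endothelial markers summed to 195 per 10000. By doublet score, 13.7% of these 131 cells and 30% of the 60 normal mixed cells were in the top 5% of their library. The part of doublets in these levels was not tested.

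PF-like cells held 0 Gdf2 UMIs in the normal library, which allows a level of up to 0.0843 per 10000, and 2.65 (352 UMIs) in fibrosis. Bmp5 went from 0.225 to 1.20 in them. The stellate markers Lrat (0.141 and 3.32) and Reln (0 and 3.54) moved with both, and their part in the result was not tested. In LSEC-like cells Gdf2 stood at 0.0155 and 0.176, at or below the lymphoid 0.0199 and 0.250, and the same held for Bmp10 (0.00364 and 0.0222, lymphoid 0.00663 and 0.0625) and Bmp5 (0.0173 and 0.118, lymphoid 0.0265 and 0.247). All 3 are therefore read as background in endothelium, although each stood higher there in fibrosis.

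Eng encodes endoglin, the co-receptor that presents BMP9 and BMP10 to ALK1 on endothelium. In the normal library its level followed the order central-vein-like (20.5, 19.8 to 21.3), zone 2/3-like (14.9, 14.5 to 15.2), zone 1-like (8.65, 8.31 to 9) and portal-vessel-like cells (6.52, 6.09 to 6.98), and no neighbours in it overlapped. In fibrosis the levels were 8.47 (8.07 to 8.88), 7.90 (7.58 to 8.24), 7.44 (7.15 to 7.73) and 3.71 (3.26 to 4.20). Central-vein-like and zone 2/3-like cells then overlapped, and so did the 2 zones.

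The ratio of fibrosis over normal for Eng was 0.412 (0.388 to 0.438) in central-vein-like, 0.531 (0.506 to 0.557) in zone 2/3-like, 0.568 (0.491 to 0.656) in portal-vessel-like and 0.860 (0.813 to 0.909) in zone 1-like cells. Per cell it was 0.616, 0.690, 0.458 and 1.23, so zone 1-like cells alone among these 4 changed direction. Over all LSEC-like cells the ratio was 0.656 (0.639 to 0.674), and 1.05 per cell. Zone 2/3-like over zone 1-like cells gave 1.72 (1.64 to 1.80) in normal and 1.06 (1.004 to 1.13) in fibrosis. This contrast was smaller in fibrosis under 4 of the 5 other clusterings, the exception being a resolution of 0.4 (1.33 and 1.38). The Igfbp5-led zone 1-like sub-clusters held Eng at 6.11 in normal and 6.12 in fibrosis. In central-vein-like cells Pecam1 was also lower in fibrosis, at 13 and 8.83, and its part in the Eng result was not tested. HSC/MF-like cells held Eng at 7.31 and 4.28, above the lymphoid 2.21 and 1.67, with a ratio of 0.585 (0.511 to 0.672) and 1.04 per cell.

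Bmpr2, the type II receptor shared by many BMPs, was higher on the portal side. It stood at 7.74 and 7.78 in portal-vessel-like, 7.98 and 6.58 in zone 1-like, 5.21 and 4.49 in zone 2/3-like and 5.84 and 4.83 in central-vein-like cells (normal and fibrosis). Its ratio lay between 0.824 and 1.004 in these 4 groups. Per cell it was 1.18 in zone 1-like, 1.12 in zone 2/3-like, 1.24 in central-vein-like and 0.810 in portal-vessel-like cells, so its direction depends on the scale. Zone 1-like over zone 2/3-like cells gave 1.53 (1.45 to 1.62) and 1.47 (1.37 to 1.57). In HSC/MF-like cells it was 3.01 and 2.73, with overlapping intervals.

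Within endothelium Acvrl1 was highest in portal-vessel-like and next in zone 1-like cells, with 1.23 (1.04 to 1.43) and 1.27 (1.01 to 1.57) in portal-vessel-like, 0.756 and 0.796 in zone 1-like, 0.421 and 0.523 in zone 2/3-like and 0.602 and 0.489 in central-vein-like cells. The intervals of normal and fibrosis overlapped in each of these groups. Per cell the ratio was 0.833 in portal-vessel-like, 1.51 in zone 1-like, 1.61 in zone 2/3-like and 1.22 in central-vein-like cells. ALK1 transcripts were not limited to endothelium, as Kupffer-cell-like cells held 0.981 (0.858 to 1.12) and 0.820 (0.726 to 0.922) and conventional dendritic cell (cDC)-like cells 0.759 and 0.604, against 0.118 and 0.222 in lymphoid cells. PF-like cells held Acvrl1 at 0.815 in normal and 0.293 in fibrosis, a ratio of 0.360 (0.217 to 0.603). Per cell it was lower by less than 1.5-fold. HSC/MF-like cells, at 0.159 (0.0641 to 0.329) and 0.128 (0.0774 to 0.201), had intervals that overlapped those of lymphoid cells. Of all Acvrl1 UMIs, LSEC-like cells held 33.0% in normal and 28.1% in fibrosis, against 54.6% and 42.0% for Eng. The same cells held 26.6% and 22% of the UMIs of all genes.

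Bmper, a secreted protein that binds BMPs outside the cell and can raise or lower their activity, was also highest on the portal side, at 0.594 (0.469 to 0.741) in normal and 0.995 (0.769 to 1.27) in fibrosis portal-vessel-like cells. Zone 1-like cells held 0.322 and 0.366, with overlapping intervals. In zone 2/3-like cells it went from 0.0330 (16 UMIs) to 0.171 (48 UMIs), a ratio of 5.17 (2.89 to 9.76), and in central-vein-like cells from 0.0217 (3 UMIs) to 0.277 (55 UMIs), a ratio of 12.8 (4.14 to 63.8). The lymphoid level went from 0.0166 to 0.05. In the fibrosis library pDC-like cells stood at 0.107 (0.0587 to 0.180), which overlapped the interval of zone 2/3-like cells (0.126 to 0.227), and neutrophil-like cells, with 4 UMIs, at 0.0834 (0.0227 to 0.213), which also reached that of central-vein-like cells (0.209 to 0.361). The fibrosis levels in these 2 endothelial groups lay above the lymphoid one, but because of these overlaps they are not clearly told apart from background. Zone 1-like over zone 2/3-like cells thus went from 9.75 (5.69 to 17.8) to 2.14 (1.53 to 3.06), and it was lower in fibrosis under all 5 other clusterings.

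**Figure D4:**
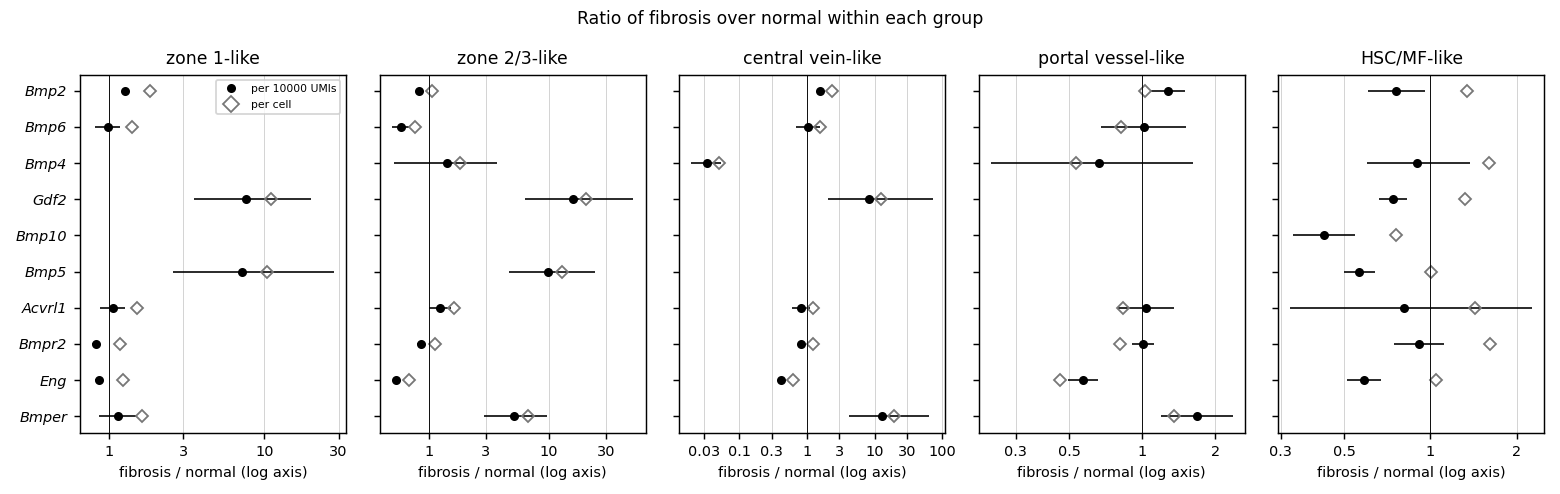
Ratio of fibrosis over normal (log axes, vertical line at 1) for the 10 genes in 5 cell groups, for genes with at least 20 UMIs over both libraries. Filled points are ratios per 10000 UMIs with exact conditional 95% intervals and open diamonds are ratios per cell. Bmp4 in central-vein-like cells is lowest at 0.0333, and Eng lies below 1 on both scales in 3 of the 4 endothelial groups.

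Read against all genes, the members did not move in 1 direction. A gene was counted where its ratio was at least 1.5-fold and it had at least 20 UMIs. In LSEC-like cells 4 of 10 members were higher (Bmper, and at background level Gdf2, Bmp10 and Bmp5) and 1 was lower (Eng), where 15.6% of 13029 genes were higher and 14.6% lower. In zone 2/3-like cells 3 of 9 members were higher and 2 were lower (Eng and Bmp6), against 13.3% and 13.7% of genes. Of the higher ones 2 were at background level, and Bmper was not clearly told apart from it. In zone 1-like cells 2 of 8 were higher, both at background level, and 0 lower, against 12.9% and 15.4%. In central-vein-like cells 3 of 8 were higher and 2 lower (Bmp4 and Eng), against 17.5% and 15.5%. The higher ones were Bmp2, Bmper (not clearly told apart from background) and Gdf2 (at background level). In portal-vessel-like cells 1 of 7 was higher (Bmper) and 2 lower (Bmp4 and Eng), against 15.5% and 16%. The portal Bmp4 ratio rested on 21 and 7 UMIs. In HSC/MF-like cells 0 of 8 were higher and 3 lower (Bmp10, Bmp5 and Eng), against 20.7% and 15.6%. Per cell, 6 of 10 members were higher and 0 lower in LSEC-like cells, against 63.1% and 7.14% of genes. In central-vein-like cells 4 of 8 were higher and 2 lower (Bmp4 and Eng), against 55.2% and 7.04%, and in HSC/MF-like cells 2 of 8 were higher (Bmp4 and Bmpr2) and 0 lower, against 69% and 3.65%. The median log2 ratio per 10000 UMIs of members was 0.20 in LSEC-like, -0.11 in central-vein-like and -0.42 in HSC/MF-like cells, beside 0.06, 0.07 and 0.06 over all genes.

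The other genes of the pathway were taken from a list of 58, of which 56 were in both libraries and 24 reached 0.5 per 10000 in LSEC-like or HSC/MF-like cells of either library. In HSC/MF-like cells 10 of 29 genes with enough UMIs were higher by 1.5-fold or more and 5 lower, beside the same 20.7% and 15.6% of all genes. Hamp, read as background below, was counted in the 5. Secreted modulators made up 4 of the 10, namely Fstl1 (3.03 and 13.7, ratio 4.53, 3.8 to 5.44), Bmp1 (0.501 and 1.41), Twsg1 (0.752 and 1.65) and Kcp. Fstl1 encodes a follistatin-like glycoprotein, Bmp1 a procollagen C-proteinase that also cleaves the antagonist chordin, and Twsg1 a BMP-binding partner of chordin.

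The ligands Gdf10 (4.10 and 7.05, ratio 1.72, 1.47 to 2.03) and Gdf6 (0.296 and 0.5) stood higher too, the latter with an interval that held 1. So did the type I receptor Acvr1 (0.661 and 1.1), the signal transducer Smad1 (0.843 and 1.89) and the target Id1 (0.228 and 0.663, with a lymphoid level of 0.501 and 1.40). On the lower side were the type II receptor Acvr2a (1.80 and 0.737, ratio 0.410, 0.304 to 0.554) and the co-receptor Tgfbr3 (4.05 and 2.07, ratio 0.510, 0.423 to 0.617). Per cell both were lower by less than 1.5-fold. Bmpr1a, the type I receptor of BMP2 and BMP4, stood at 0.957 and 0.981 in these cells, and Bambi, a decoy receptor, at 2.03 and 1.93. In endothelium the Bmpr1a ratio was 0.569 in central-vein-like (11 and 9 UMIs) and 2.76 in zone 2/3-like cells (10 and 16 UMIs), where all 4 levels lay below those of lymphoid cells.

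In LSEC-like cells 3 of 35 pathway genes with enough UMIs were higher and 8 lower, beside 15.6% and 14.6% of all genes. Hamp and Hamp2 were counted in the 8. Gdf10 (0.0246 and 0.258) and Fstl1 (0.0427 and 0.236) lay below their fibrosis lymphoid levels of 0.491 and 0.475 and are read as background. The direct targets differed less: Id1 stood at 2.50 and 2.73, Id2 at 4 and 3.41, Id3 at 9.69 and 7.37, Smad6 at 2.03 and 1.85 and Smad7 at 2.79 and 3.01. Id3 thus had a ratio of 0.760 (0.739 to 0.783), and 1.22 per cell. Bambi was at 0.210 and 0.124, the fibrosis value next to a lymphoid 0.134. Hamp, which encodes hepcidin and is made by hepatocytes, stood at 2.73 and 0.135 in LSEC-like cells and at 3.77 and 0.322 in lymphoid cells, so its levels here are read as background. The 15 hepatocyte markers summed to 234 and 16.1 per 10000 in LSEC-like cells and moved with it.

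In central-vein-like cells, where Bmp4 and Eng were lower, 2 of 28 pathway genes were higher and 9 lower, beside 17.5% and 15.5% of all genes. Hamp (read as background), Hamp2 and Bmpr1a (few UMIs, below the lymphoid level) were counted in the 9. Among the lower ones were Bambi (1.17 and 0.262, ratio 0.223, 0.160 to 0.307), Fstl1 (1.94 and 1.01, ratio 0.521, 0.432 to 0.628), Id3 (16.7 and 9.50, ratio 0.569, 0.535 to 0.605) and Crim1 (7.35 and 4.60, ratio 0.626, 0.572 to 0.685). Crim1 encodes a membrane protein that binds BMPs. Id2 stood at 5.29 and 3.31. Lymphoid cells held more, at 7.65 and 8.04, so they may hold Id2 of their own and are not used as its background. Per cell, Id3 had a ratio of 0.851, Crim1 of 0.936 and Bambi of 0.334. Fkbp1a, whose product holds type I receptors inactive, was higher (7.63 and 11.5, ratio 1.51, 1.4 to 1.63).

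**Figure D5:**
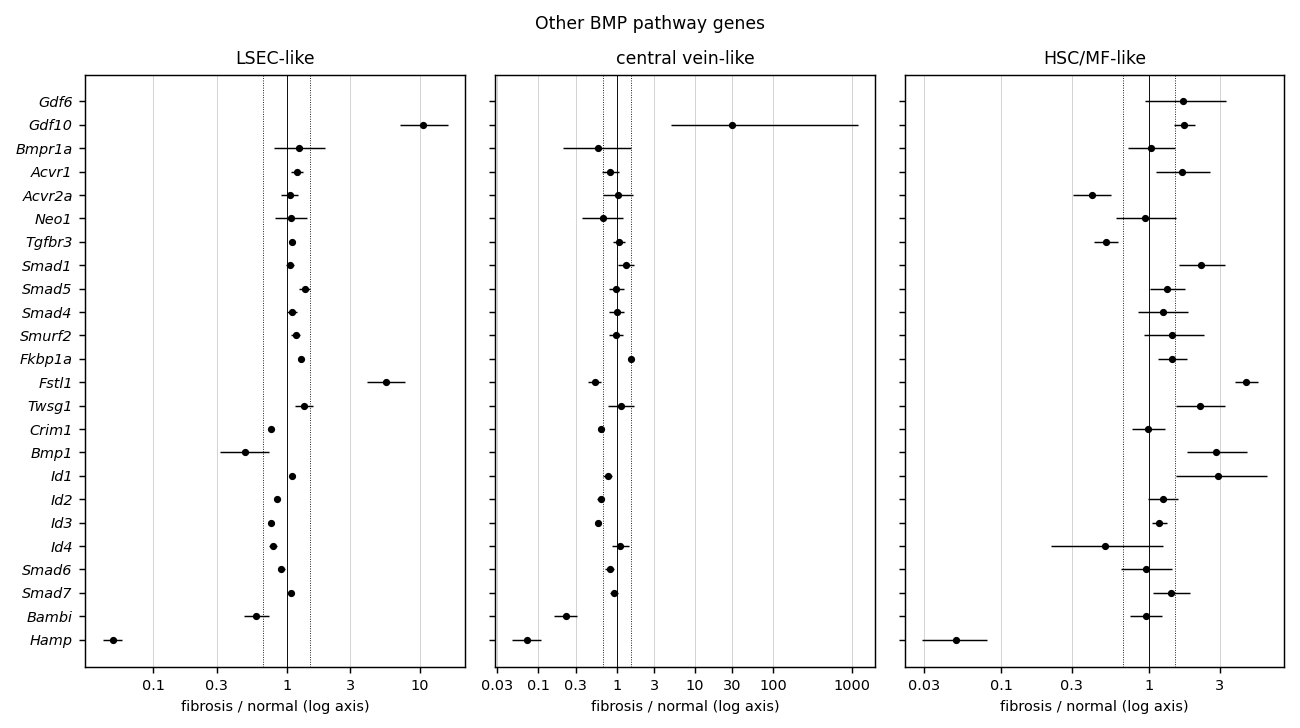
Ratio of fibrosis over normal (log axes, exact conditional 95% intervals, vertical lines at 1 and at the 1.5-fold limits) of 24 other BMP pathway genes in LSEC-like, central-vein-like and HSC/MF-like cells, where a gene had at least 20 UMIs. Fstl1 is 4.53 in HSC/MF-like cells and 0.521 in central-vein-like cells, and Hamp lies far below 1 in all 3 groups, as it does in lymphoid cells.

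For each member the genes with the most similar pattern were sought by Pearson correlation of log2 levels over 40 points, which are 20 cell groups in each of 2 libraries that share their free RNA. It was a description over 8990 genes. Bmp2 was most like Clec4g (0.978), Stab2 (0.968) and Col13a1 (0.964), and Bmp6 like Sema6a (0.917), Fam174b (0.911) and Stox2 (0.894). Bmp5 was like Pth1r (0.977) and Lrat (0.975), Bmp10 like Gpat2 (0.976) and Lama1 (0.964), and Gdf2 like Lrat, Adamts13 and Nr1h5 (0.944 each). Pth1r and Lrat are among the HSC/MF markers used for naming, and Clec4g, Stab2 and, below, Ramp2 are among the endothelial ones. Bmp4 was most like Tppp (0.870), Ltbp1 (0.822) and C1qtnf7 (0.769). The receptors had Ramp2 (0.934), Lrrc32 (0.921) and Chst15 (0.912) nearest to Eng, Il6st (0.948), Tns2 (0.945) and Rapgef5 (0.942) nearest to Bmpr2, and Hfe (0.829), Znfx1 (0.825) and Cttnbp2nl (0.816) nearest to Acvrl1. Bmper was most like Hmcn1 (0.850), Cdh4 (0.830) and Armcx2 (0.822).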

How the data were processed

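Liver NPCs of 1 normal and 1 fibrotic mouse were profiled by single-cell RNA sequencing. The authors deposited UMI counts per gene and cell without normalization. The submitters' processing notes name Cell Ranger 3.0.1 and mm10, and the study states that doublets had been excluded with Scrublet, so they were not removed again. The deposited counts still held 659 normal and 305 fibrosis cells at or above the study's 10% mitochondrial limit. Whether its doublet exclusion had been applied to them is therefore not known. Cells with under 10% mitochondrial UMIs and over 200 genes were kept. Each library was clustered on its own in scanpy 1.11.5 (2000 variable genes, 10 components, 20 neighbours, Leiden resolution 0.8), with members and pathway genes held out. Clusters were named by the class that led their 10 top genes, given 3 or more markers raised 2-fold. Endothelial-like and mesenchymal cells were clustered again, where any rise counted. An endothelial sub-cluster took the zone whose list had the largest mean log2 fold, a rule set after the clusters, but not the members' values, had been seen. Sub-clusters without a zone (944 normal and 661 fibrosis cells, some led by hepatocyte or haemoglobin genes) stayed LSEC-like. Python was 3.11.15, with scipy 1.17.1 for intervals and matplotlib 3.10.9.

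Levels, ratios and shares came from summed counts, and the scripts were tested on simulated data. The members, lists and comparisons were chosen with earlier results of these data known. Named were all members, pathway genes that reached 0.5 per 10000 and were at least 1.5-fold apart, and the 3 most similar genes of each member, of which 1 for Bmp5 and 1 for Bmp10 is not reported here. Kcp and Hamp2, and Id1, Id2, Id3, Smad6, Smad7, Bmpr1a and Bambi where they were closer than 1.5-fold, were added after their values were seen. Positions are from GENCODE and promoters from RefSeq, both on GRCm38. Alternatives were the mitochondrial limit, the resolution, genes not held out, doublet scores, other scales, thresholds and cell subsets.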

Additional observations from a re-analysis of the deposited data

Results flagged for a closer look

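For Bmp2 and Eng, the ratio of fibrosis over normal had counting intervals on opposite sides of 1 in different groups of a lineage. The differences between groups were not tested, as there was 1 mouse per condition. Within endothelium the Bmp2 ratio was 0.826 in zone 2/3-like cells but 1.28 in zone 1-like, 1.55 in central-vein-like and 1.27 in portal-vessel-like cells. Per cell the zone 2/3-like ratio was 1.07, and the zone 1-like ratio fell below 1 under 4 of 5 other clusterings. The portal-vessel-like levels lay close to the lymphoid ones in both libraries, and the normal one (2.95) lay below that of neutrophil-like cells (4.26). Stab2 and Wnt2 also stood higher in fibrosis central-vein-like cells, and their part in the Bmp2 ratio there was not tested.

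Within mesenchyme the Bmp2 ratio was 0.756 in HSC/MF-like cells and 0.496 in those named PF-like but 1.62 in mesothelial-like cells. All 6 of these levels lay below the lymphoid level of their library, and per cell the first of these ratios was 1.35 and the next 1.01. The Eng ratio was 0.585 in HSC/MF-like cells (1.04 per cell) but 1.5 in mesothelial-like (2.19 per cell) and 1.41 in PF-like cells (2.87 per cell). The mesothelial-like levels lay below the lymphoid ones, and the normal PF-like level of 2.39 (1.91 to 2.96) overlapped the lymphoid 2.21.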

How the results depend on the processing

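No paired analysis was possible because each group was 1 library. The limit throughout is 1 mouse per group, since counting intervals hold no spread between mice, and no leaving out of a replicate could be done. Of 399 values recomputed under 17 alternatives, 237 stayed within the counting interval of the reported value (within 1.5-fold for a count of genes), 144 moved further and 18 changed direction, and the cause was not tested. The alternatives by cell subset (cells with a Wnt9b UMI, each fibrosis HSC/MF-like sub-cluster, LSEC-like cells with a zone name) were chosen after seeing the data.

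Counted per cell, the ratio of fibrosis over normal in LSEC-like cells turned to 1.43 for Bmp2, 1.23 for Bmp6, 1.05 for Eng and 1.4 for Bmpr2, and in HSC/MF-like cells to 1.32 for Gdf2, 1.01 for Bmp5 and 1.04 for Eng. It also turned to 1.23 for Eng in zone 1-like and 1.07 for Bmp2 in zone 2/3-like cells, while Eng in zone 2/3-like cells was 0.69, Bmp10 in HSC/MF-like cells 0.755, and the fibrosis zone 2/3-like over zone 1-like ratio of Eng 0.961. With the lymphoid level subtracted, Acvrl1 in LSEC-like cells turned to 0.936, Bmp2 there was 0.824 and Eng in zone 2/3-like cells 0.493.

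The Bmp2 ratio in LSEC-like cells was 0.856 without a mitochondrial limit, 0.837 at 5%, 0.784 at resolution 0.4, 0.829 at 1.5, 0.789 with no gene held out, 0.931 as a mean over cells and 0.868 with zone-named cells only. In zone 1-like cells it turned to 0.759 without the limit, 0.617 at resolution 0.4, 0.918 at 1.5 and 0.87 with no gene held out, and in central-vein-like cells to 0.605 at resolution 0.4. The normal zone 2/3-like over zone 1-like ratio of Bmp6 turned to 0.973 without the limit and 0.834 with no gene held out. Eng in zone 2/3-like cells was 0.498 at the 5% limit and 0.613 at resolution 0.4.

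Bmp4 in central-vein-like cells was 0.108 at resolution 0.4 and 0.0169 without the 3 richest cells. At the 5% limit it gave no ratio, with 0 fibrosis UMIs. In HSC/MF-like cells Gdf2 was 0.852 without the limit and 0.632 at resolution 1.5, and Bmp10 was 0.696 without the limit. In the Ankrd1-led sub-cluster Gdf2 was 0.648 and Bmp10 0.259, and in the Ms4a4b-led one 0.963 and 0.826. HSC/MF-like cells were not found in either library at the 5% limit, nor in the normal library at resolution 0.4.

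Of members and pathway genes together, 7 were higher and 9 lower in LSEC-like cells, 5 and 11 in central-vein-like and 10 and 8 in HSC/MF-like cells. Tested were 10 members and 35 pathway genes in LSEC-like, 8 and 28 in central-vein-like and 8 and 29 in HSC/MF-like cells. Under other limits on cells or UMIs the numbers tested can differ and were not recorded. Those counts are therefore not shares to set against the percentages of all genes. Per cell these counts were 25 and 5, 12 and 6, and 26 and 2, where 63.1% and 7.14%, 55.2% and 7.04%, and 69% and 3.65% of all genes were higher and lower. At the 5% limit, 3 were higher in LSEC-like (14.5% of all genes) and 7 lower in central-vein-like cells (19.3%). Without the limit, 3 were higher in central-vein-like (17.2%) and 5 in HSC/MF-like cells (18.1%). With a fold of 2, 3 were higher (7.21%) and 6 lower (8.37%) in central-vein-like cells and 4 lower in HSC/MF-like cells (7.02%). With no minimum of UMIs, 8 were higher (19.3%) and 17 lower (19.2%) in central-vein-like cells, and in the Ms4a4b-led sub-cluster 6 were higher (16.7%).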
